A study of Homo sapiens with 9 samples.

Results

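The RNAs described here are 9 nuclear and short structured non-coding RNAs, chosen by name out of the 58096 gene IDs that the deposited count files list: MALAT1, NEAT1, RN7SK, RMRP, RPPH1, RN7SL1, RN7SL2, TERC and SCARNA2. ALL-SIL, a human T-cell acute lymphoblastic leukaemia line driven by the homeobox transcription factor TLX1, was electroporated with an siRNA against TLX1 or with a non-targeting control. The groups were siTLX1 s46, siTLX1 s47 and scrambled siRNA, each with 3 libraries of total RNA taken at 24 h. A dose of 400 nM is labelled for the scrambled siRNA; the labels of s46 and s47 carry none, and all libraries come from the same line grown in the same medium. Whether replicates were cultured apart is not labelled, and p-values here reflect variation among libraries that may be technical.

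MALAT1 and NEAT1 are long RNAs that stay in the nucleus: MALAT1 gathers in nuclear speckles, which store splicing factors, and NEAT1 is the scaffold on which paraspeckles form. RN7SK, RMRP, RPPH1, RN7SL1 and RN7SL2 are made by RNA polymerase III and work as the RNA cores of protein complexes that restrain the elongation factor P-TEFb, cut ribosomal and transfer RNA precursors, and direct secreted proteins to the endoplasmic reticulum. TERC is the template of telomerase, and SCARNA2 is a Cajal body RNA that guides the modification of spliceosomal RNA.

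Of the 9 RNAs, 3 had sense reads in all 9 libraries (MALAT1, NEAT1 and RN7SL2), 1 had a few (TERC), and 5 were at 0 in every library (RN7SK, RMRP, RPPH1, RN7SL1 and SCARNA2). The same 5 were at 0 in all 3 groups. The files list ambiguous reads apart, taken here as reads that fall on more than 1 gene and are credited to none. Each of the 5 RNAs at 0 lies, wholly or for RMRP in 264 of its 268 bases, within a further listed entry on the same strand. The sequences of 2 members show what the entries share. RMRP and the 3′ end of TERC are shown because they carry the bases that belong to no further entry, which are in capitals. Both are written 5′ to 3′ as in GENCODE 29 transcripts on GRCh38, from chr9:35657751-35658018 (minus strand) for RMRP and chr3:169764520-169764639 (minus strand) for TERC.
RMRP: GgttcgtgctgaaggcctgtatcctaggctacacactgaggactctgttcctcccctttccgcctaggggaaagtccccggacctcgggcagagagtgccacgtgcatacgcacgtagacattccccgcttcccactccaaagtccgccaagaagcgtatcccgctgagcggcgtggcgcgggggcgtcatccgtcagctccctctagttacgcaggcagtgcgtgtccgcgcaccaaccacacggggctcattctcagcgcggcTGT
TERC: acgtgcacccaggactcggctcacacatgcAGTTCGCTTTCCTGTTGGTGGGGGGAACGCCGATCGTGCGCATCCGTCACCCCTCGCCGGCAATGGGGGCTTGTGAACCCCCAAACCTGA

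RMRP has 4 bases of its own among 268. TERC has 103 of its own among 541, of which 13 lie at the 5′ end and 90 at the 3′ end, the capitals of its printed stretch. RN7SL1 has 299 bases and RN7SL2 300, and 295 of 300 aligned columns were identical (98.3%), though only RN7SL2 has reads.

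Library depth was 21134650 to 33393740 sense gene reads. TLX1, the targeted gene, had 63.7, 87.3 and 78.6 CPM (TMM-scaled) in s46 libraries and 63.5, 73.7 and 75.0 in s47 libraries, against 198, 188 and 171 in scrambled libraries (log2 fold change of both siRNAs -1.34 ± 0.11 SE, edgeR adjusted p = 0.000394). Reads that matched no counted feature were not split into those in introns and those between genes. Scrambled replicate 1 stood apart: 14.4% of its reads were multimapping, against 6.36% to 7.34% in the other 8 libraries. In it 36.8% matched no counted feature, against 23.8% to 32.3%, and 39.9% were sense gene reads, against 52.7% to 59.9%. Values of the counted members and of the gene lists are therefore given with and without it. The 9 T-cell marker genes summed to 1827 to 1931 CPM in s46, 1852 to 1871 in s47 and 1901 to 2020 in scrambled libraries, and the B-cell markers to 10.4 to 14.7 CPM over all 9. Within the T-cell list edgeR called 0, against 0.566% of all genes tested, and DESeq2 1, against 2.85%. By edgeR 6 of the 9 had an unadjusted p under 0.05 for both siRNAs, against 17.8% of all genes tested. Of these, 3 were higher (CD1A 0.87, CD2 0.71 and CD3D 0.37 in log2 fold change), against 7.27%. The other 3 were lower (CD7 -0.50, CD3E -0.43 and PTPRC -0.36), against 10.5%. The list's median was 0.09, and 0.12 without scrambled replicate 1. Without that library edgeR called 1 of the 9, lower, and 24 of 16365 genes lower. Myeloid and erythroid markers reached at most 0.561 CPM in sum and epithelial and fibroblast markers 0.224, with HBA1, HBA2 and DCN at 0.

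The entries show how many bases of each member lie in no other entry. RN7SK (ENSG00000283293.1, chr6:52995621-52995948, plus strand) shares all of its 328 bases with the listed entry RF00100, which was also at 0 in all 9 libraries. RPPH1 (ENSG00000277209.1, chr14:20343075-20343407, minus strand), the RNA of ribonuclease P, shares all 333 bases with AL355075.4, an entry of 638 exon bases that held 3 reads over the 9 libraries. RN7SL1 (ENSG00000276168.1) shares all 299 with AL139099.4, which was at 0. SCARNA2 (ENSG00000278249.1, chr1:109100193-109100612, plus strand) shares all 420 with AL356488.2, which held 2 reads.

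RMRP, the RNA of ribonuclease MRP, is listed as 2 entries, ENSG00000269900.3 with 268 bases and ENSG00000277027.1 with 264. The shorter lies wholly inside the longer, and both were at 0 in all 9 libraries. TERC (ENSG00000270141.3, chr3:169764520-169765060, minus strand) shares 438 of 541 bases (81.0%) with RF00024, which was at 0. TERC had 1, 0 and 2 sense reads in s46 libraries and 3, 4 and 0 in s47 libraries, against 2, 10 and 1 in scrambled libraries. The 23 reads sum over an entry whose own bases number 103, the groups overlap, and no fold change is given.

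A count of 0 in these entries is no measure of the RNA's level in the cells. It allows the entry a share of gene reads of up to 8.98e-06% in the deepest library and 1.42e-05% in the shallowest, taking 3 reads as the limit, for counting error only. Ambiguous reads made up 2.71%, 3.69% and 3.70% of all reads in s46 libraries, 3.25%, 3.61% and 4.44% in s47 libraries and 2.12%, 3.88% and 3.76% in scrambled libraries. How many of them came from these RNAs was not tested, since the files do not split them by gene.

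The remaining 3 members have nearly all bases to themselves. MALAT1 (ENSG00000251562.7, chr11:65497688-65506516, plus strand) shares 152 of 8829 exon bases (1.72%) with the entries RF01871 and RF01684. NEAT1 (ENSG00000245532.6, chr11:65422774-65445540, plus strand) shares 384 of 22767 (1.69%) with RF01955, RF01956 and RF01957. All 5 of those entries were at 0 in all 9 libraries. RN7SL2 (ENSG00000274012.1) shares none. The files carry other version numbers of MALAT1 and NEAT1 than GENCODE 29, so their boundaries in the counting may differ.

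**Figure D1:**
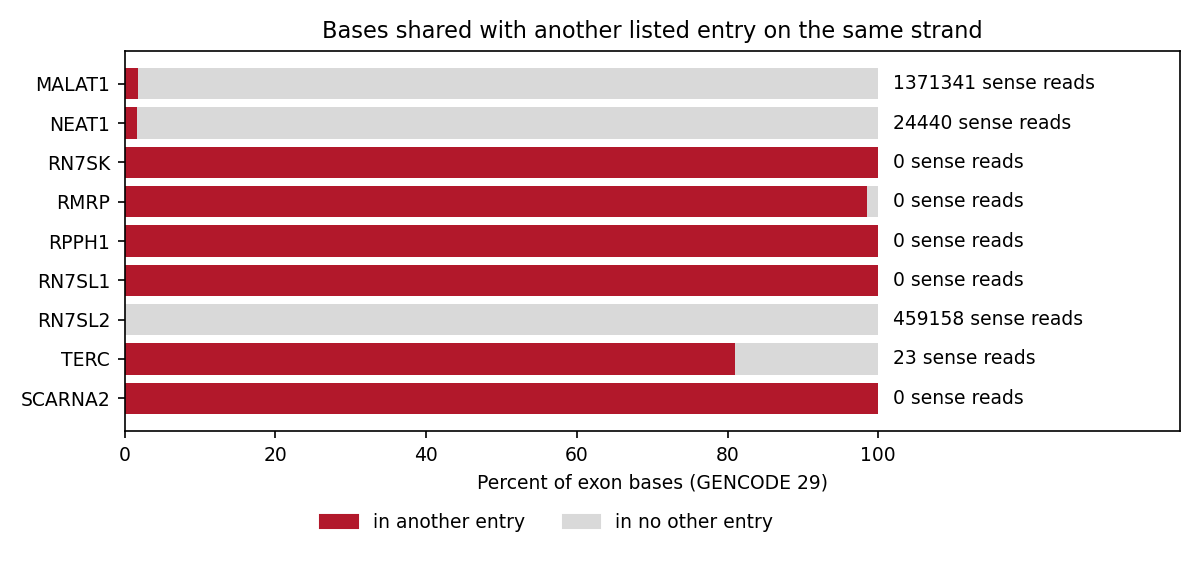
Percent of the exon bases of each of the 9 RNAs that lie in another listed entry on the same strand (red) or in none (grey), with the sense reads summed over 9 libraries at the right. The 4 RNAs with 100% shared bases and RMRP at 98.5% have 0 reads, and the 3 with under 2% shared hold 24440 to 1371341.

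If reads on shared bases are credited to no gene, fully shared genes should be at 0. The counts over all listed genes were set against that rule, and they include the members. Of 778 listed genes whose exon bases all lie in other same-strand entries, 751 (96.5%) were at 0 in all 9 libraries, against 1137 of 4226 partly shared genes (26.9%) and 24526 of 52443 unshared genes (46.8%). The other 27 fully shared genes held reads, up to 7729 in sum over the 9 libraries, which the rule does not allow with these boundaries. Why they held reads was not tested, and the annotation used for counting is not named. Among the short RNA classes the members belong to, 2 of 2 fully shared ribozyme genes and 7 of 7 scaRNA genes were at 0. So were 31 of 32 snRNA genes and 121 of 122 genes typed misc_RNA. RPPH1, the shorter RMRP entry, SCARNA2, RN7SK and RN7SL1 are themselves among these genes. Over all listed genes of those types, 5 of 8 ribozymes, 29 of 49 scaRNAs, 1411 of 1909 snRNAs and 1484 of 2221 misc_RNAs were at 0.

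Copies elsewhere are a separate matter from shared entries. Every 64-base window of MALAT1, RMRP, RPPH1, TERC and SCARNA2 occurred in no transcript of another GENCODE 29 locus, and 99.96% of NEAT1 windows did so. Of RN7SK windows, 77 of 265 (29.1%) were in 1 place, with copies in 8 other genes. Of RN7SL1 windows 51 of 236 (21.6%) were in 1 place, and of RN7SL2 windows 36 of 237 (15.2%). A 64-base stretch from most of RN7SL2 therefore also matches transcripts of other genes, and the files list multimapping reads apart, so the RN7SL2 counts cover reads that were placed once. Intervals and limits from counts cover counting error only.

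Per length, RN7SL2 was the highest of the 3 counted members and NEAT1 the lowest. In RPKM (here CPM divided by exon length in kilobases), RN7SL2 averaged 5931 in the 6 TLX1 siRNA libraries and 5913 in the 3 scrambled libraries. MALAT1 averaged 549 ± 76.5 in the TLX1 siRNA libraries (SD, n = 6) and 756 in scrambled libraries. NEAT1 averaged 3.44 in the TLX1 siRNA libraries and 6.06 in scrambled libraries. The lowest library of each stood far above the highest of the next in this order, so the order held in every library.

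MALAT1 had 5063, 4931 and 4571 CPM in s46 libraries and 4202, 6030 and 4267 CPM in s47 libraries, against 8787, 4915 and 6324 CPM in scrambled libraries. It ranked first or second among the 16072 genes tested in every library by CPM. Scrambled replicate 1 was the highest library, and scrambled replicate 2 lay below 2 s46 libraries and 1 s47 library, so the groups overlap. Scrambled replicate 1 gave MALAT1 0.928% of its gene reads (95% exact binomial interval 0.924% to 0.933%), while the other 8 libraries gave it 0.407% to 0.660%.

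MALAT1 averaged 4855 ± 255 CPM with s46, 4833 ± 1037 with s47 and 6676 ± 1960 with scrambled siRNA (SD, n = 3 each). The difference did not pass the test. For both siRNAs the log2 fold change was -0.46 ± 0.18 SE (edgeR quasi-likelihood test, adjusted p = 0.234 over 16072 genes). It was -0.46 ± 0.21 for s46 (adjusted p = 0.420) and -0.47 ± 0.21 for s47 (adjusted p = 0.400). Without scrambled replicate 1 the scrambled mean was 5620 CPM (n = 2) and the value for both siRNAs was -0.21 (adjusted p = 0.744). Without scrambled replicate 2 the value was -0.64 and passed (adjusted p = 0.0346), in a fit that called 10.1% of all genes, against 0.566% with all 9 libraries. In bulk RNA, fewer cells of a kind and less RNA per cell cannot be told apart.

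NEAT1 had 90.8, 66.8 and 90.1 CPM in s46 libraries and 72.2, 81.9 and 68.3 CPM in s47 libraries, against 182, 80.6 and 152 CPM in scrambled libraries. By CPM its rank among the 16072 genes tested ran from 1215 to 3899 over the libraries. Scrambled replicates 1 and 3 lay above all 6 TLX1 siRNA libraries, and scrambled replicate 2 lay among them. NEAT1 averaged 82.6 ± 13.6 CPM with s46, 74.1 ± 6.98 with s47 and 138 ± 51.9 with scrambled siRNA (SD, n = 3 each).

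The log2 fold change of NEAT1 was -0.82 ± 0.20 SE for both siRNAs (edgeR adjusted p = 0.106), -0.74 ± 0.24 for s46 (adjusted p = 0.351) and -0.90 ± 0.24 for s47 (adjusted p = 0.227). None of these passed the threshold of 0.05. The call for both siRNAs turned with the method: it passed with DESeq2 (-0.81, adjusted p = 0.00842), with no filter on low counts (-0.79, adjusted p = 4.89e-07) and without scrambled replicate 2 (-1.09, adjusted p = 0.0032). These settings also called more genes at large than the 0.566% of the main fit. DESeq2 called 2.85% of genes, and the fit without scrambled replicate 2 called 10.1%. With no filter, 325 of 31261 genes were called higher and 551 lower. Without scrambled replicate 1 the scrambled mean was 116 CPM (n = 2) and the value was -0.57 (adjusted p = 0.423).

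RN7SL2, an RNA core of the signal recognition particle, had 1324, 1803 and 1558 CPM in s46 libraries and 1839, 1908 and 2243 CPM in s47 libraries, against 1146, 1954 and 2222 CPM in scrambled libraries. Scrambled replicate 1 was here the lowest of the 9, the reverse of its place for MALAT1 and NEAT1. RN7SL2 averaged 1562 ± 239 CPM with s46, 1997 ± 216 with s47 and 1774 ± 560 with scrambled siRNA (SD, n = 3 each). The log2 fold change for both siRNAs was -0.01 ± 0.18 SE (edgeR adjusted p = 0.988), and its sign turned with the scaling: it was 0.07 with all reads as library size and 0.0022 with RLE size factors. Without scrambled replicate 1 the scrambled mean was 2088 CPM (n = 2) and the value was -0.24 (adjusted p = 0.635).

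**Figure D2:**
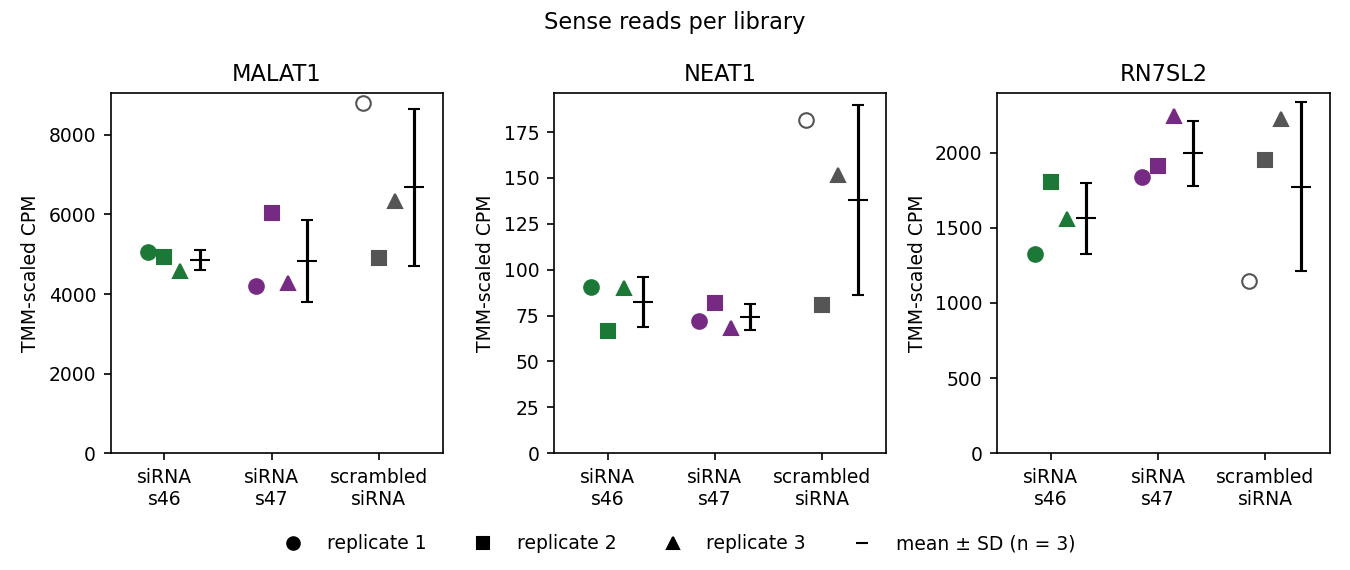
TMM-scaled CPM of MALAT1, NEAT1 and RN7SL2 in each of 9 libraries, with siRNA s46 at the left of each panel, s47 in the middle and scrambled siRNA at the right; bars are mean ± SD of 3 libraries and the open circle is scrambled replicate 1. That library is the highest of 9 for MALAT1 (8787 CPM) and NEAT1 (182 CPM) and the lowest for RN7SL2 (1146 CPM).

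Of the 3 members tested, 0 were called by edgeR for both siRNAs at an adjusted p under 0.05, against 0.566% of the 16072 genes. At an unadjusted p under 0.05, 2 of the 3 passed (MALAT1 and NEAT1, both lower), against 17.8% of all genes, or 10.5% lower. DESeq2 called 1 of the 3 (NEAT1), against 2.85% of genes, and limma-voom 0, against 0.61%. For s46 alone edgeR called 0 of 3, against 0.174% of genes, and 2 had an unadjusted p under 0.05, against 11.9%. DESeq2 called 0, against 1.22% of genes, and limma-voom 0, against 0.168%. A fit with the replicate number as a block called 0.46% of genes for s46, 74 in place of 28, and 0 of the 3 members. For s47 alone edgeR called 0 of 3, against 0.33%, and 2 had an unadjusted p under 0.05, against 12.3%. DESeq2 called 1 (NEAT1), against 1.26% of genes, and limma-voom 0, against 0.33%. None of the 3 had 6 TLX1 siRNA libraries apart from the 3 scrambled ones, a separation shown by 8.12% of all genes.

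Set against each other, s46 and s47 gave MALAT1 a log2 difference of 0.01 ± 0.21 SE, NEAT1 0.16 ± 0.24 and RN7SL2 -0.35 ± 0.21 (edgeR, unadjusted p = 0.120 for RN7SL2). This fit did not pair libraries by replicate number. RN7SL2 was lower in s46 than in s47 at every number, while MALAT1 and NEAT1 went both ways. With the replicate number as a block, 0 of 16072 genes were called. Again 0 of 3 were called by edgeR, DESeq2 or limma-voom, against 0% of genes by edgeR, and 0 of 3 had an unadjusted p under 0.05, against 0.703%. These values do not show that the siRNAs act alike, since differences of the size of their errors would not be detected.

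**Figure D3:**
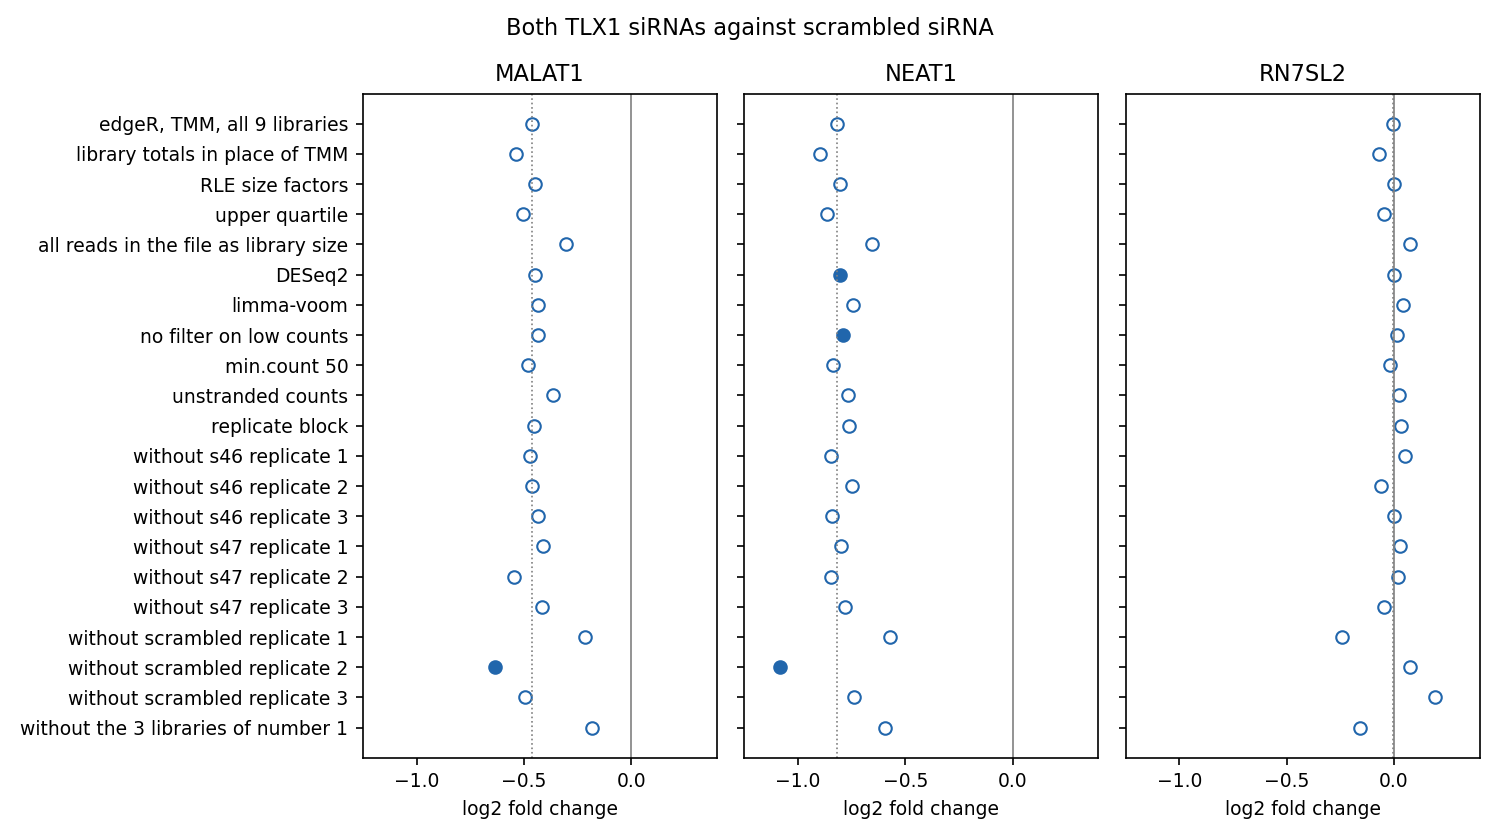
log2 fold change of MALAT1, NEAT1 and RN7SL2 for both TLX1 siRNAs against scrambled siRNA (x axis) under each way of processing (rows); filled points have an adjusted p under 0.05, the dotted line marks the value in the top row and the solid line 0. NEAT1 runs between -1.09 and -0.57 and is filled in 3 rows, MALAT1 is filled only without scrambled replicate 2 (-0.64), and RN7SL2 lies on both sides of 0.

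The members' levels were set against how the reads of a library divided into classes. Permutations ran over all 9 libraries, ignoring groups and replicate numbers. Their p-values therefore do not separate these relations from differences between groups. NEAT1 log2 CPM correlated across the 9 libraries with the percent of reads that matched no counted feature (Pearson r = 0.845, exact permutation p = 0.00324, adjusted over 9 relations 0.0146). Its Spearman rho was 0.883 (exact permutation p = 0.00308, adjusted 0.0277). Without the 2 libraries farthest from the median of that percent, s47 replicate 3 and scrambled replicate 1, r was 0.633. MALAT1 log2 CPM gave r = 0.843 with the same measure (exact permutation p = 0.00569, adjusted 0.0171), and 0.501 without those 2. Its rho was 0.717 (exact permutation p = 0.0369, adjusted 0.111). RN7SL2 log2 CPM gave r = 0.900 with the percent of ambiguous reads (exact permutation p = 0.00128, adjusted 0.0115), and 0.548 without s46 replicate 1 and scrambled replicate 1. Its rho was 0.833 (exact permutation p = 0.00827, adjusted 0.0372).

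These relations rest in part on the libraries left out, and each replicate number holds 3 libraries, too few for a value within it. The other 6 relations tested had adjusted permutation p-values for r from 0.0691 to 0.109. The part of these read classes in the differences between groups was not tested.

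**Figure D4:**
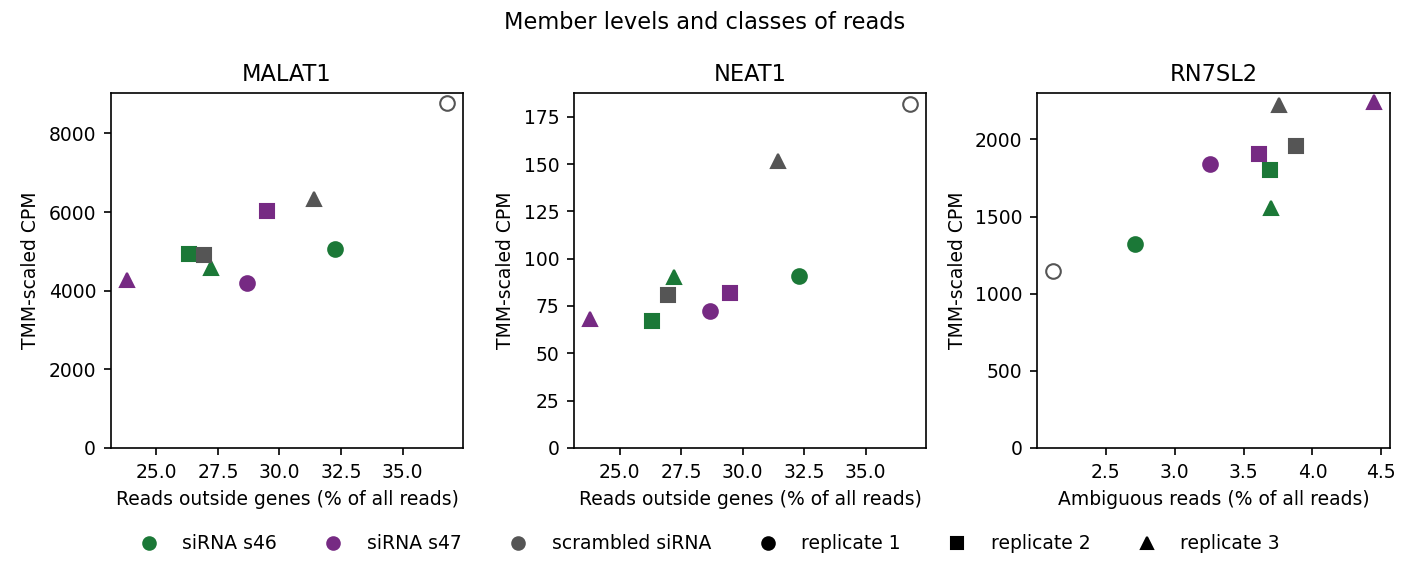
TMM-scaled CPM of MALAT1 and NEAT1 (y axes) against the percent of all reads that matched no counted feature (labelled as outside genes), and of RN7SL2 against the percent of ambiguous reads (x axes), 1 point per library, with colours for s46, s47 and scrambled siRNA and shapes for replicate numbers. Scrambled replicate 1, the open circle, lies at an end of each panel, with 36.8% of its reads matching no counted feature and 2.12% ambiguous.

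The members also varied among themselves over libraries. MALAT1 and NEAT1, which lie next to each other at 11q13, had r = 0.870 in log2 CPM over 9 libraries and 0.706 over the 8 without scrambled replicate 1. RN7SL2 had r = -0.486 with MALAT1 and -0.441 with NEAT1 over 9, and 0.163 and 0.109 over 8. Among 11430 genes tested with a mean log2 CPM of at least 1, the genes with a log2 CPM pattern most like that of MALAT1 were HECTD4 (r = 0.981 over 9 libraries, 0.946 over 8) and ASXL1 (0.980 and 0.943). Those most like NEAT1 were SFMBT2 (0.989 and 0.984) and GARS-DT (0.978 and 0.980), and those most like RN7SL2 were ZNF211 (0.954 and 0.924) and ZNF596 (0.936 and 0.877). These correlations share the libraries and their depth and describe only this likeness.

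Reads on the strand opposite MALAT1 were 0.240% to 0.439% of its stranded reads. Their log2 fold change for both siRNAs was -0.12 ± 0.16 SE (edgeR adjusted p = 0.827), and that of reads opposite RN7SL2 was 0.15 ± 0.25 (adjusted p = 0.878), where 0.0201% of the 9964 genes tested on that strand were called. Strand decides how much of MALAT1 is counted. AP000769.2, a listed gene of 396 bases at chr11:65498010-65498405 on the minus strand, lies 322 to 717 bases downstream of the MALAT1 start and covers 4.49% of it. Counting without strand lost MALAT1 20.0%, 20.3% and 19.8% of its reads in s46 libraries, 20.1%, 20.5% and 20.3% in s47 libraries and 26.1%, 20.0% and 21.0% in scrambled libraries. AP000769.2 itself had 65 sense reads over the 9 libraries. The loss was highest in scrambled replicate 1. Whether the lost reads lay in the bases that AP000769.2 covers was not tested.

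Of 12 lists of genes that work with, lie near or resemble these RNAs, edgeR called members in 1, telomerase and H/ACA proteins; limma-voom called members in that list too, and DESeq2 also among RNA polymerase III subunits. Unless a tool is named, list counts are from edgeR. These counts depended on scrambled replicate 2 and on the filter: with no filter on low counts edgeR made 12 calls in 8 of the 12 lists, and without that library 34 calls in 10 of them, where it called 10.1% of all genes. The exceptions without that library were the small nuclear and polymerase III RNAs and the scaRNAs, with 0 called. Of 11 tested genes of the 7SK complex and P-TEFb, 0 were called by edgeR and 2 had an unadjusted p under 0.05. Over all 16072 genes 0.566% were called and 17.8% had such a p, and these shares apply to the lists below. The log2 fold changes of the 11 were above 0 for 5 and below 0 for 6, with a median of -0.10, against -0.03 over all 16072 genes. CCNT1, the cyclin of P-TEFb, had the highest value (0.34). Without scrambled replicate 1 the median was 0.09.

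By edgeR, DESeq2 and limma-voom alike, 0 of 20 nuclear speckle proteins were called. By edgeR 5 had an unadjusted p under 0.05, against 17.8% of all genes. The median was 0.13, and 0.01 without scrambled replicate 1. SRRM2, a scaffold of the speckle, was lowest at -1.53 ± 0.51 SE (edgeR adjusted p = 0.215), with means of 174 CPM for s46, 190 for s47 and 527 for scrambled siRNA, and SRSF7, a splicing factor, was highest at 0.30. Of 18 paraspeckle proteins, 0 were called and 3 had an unadjusted p under 0.05, again against 17.8% of all genes. The list's median was 0.08, and 0.02 without scrambled replicate 1. NUDT21, a cleavage factor subunit, was highest at 0.33. SRRM2 passed without scrambled replicate 2 (adjusted p = 0.0417), where 10.1% of all genes were called, and its value was -0.18 without scrambled replicate 1.

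Of 10 tested RNase P and RNase MRP proteins, 0 were called and 3 had an unadjusted p under 0.05, all higher (7.27% of all genes passed so), and RPP25 was at 0. Values lay above 0 for 9 of the 10, with a median of 0.22, from RPP25L at -0.11 to RPP21 at 0.60. Without scrambled replicate 1 the median was 0.08. Of 8 genes of the signal recognition particle and its receptor, 0 were called and 4 had an unadjusted p under 0.05, against 17.8% of all genes. The list's median was 0.21. SRP68, the protein that holds the particle's large RNA domain, was lowest at -0.32, and SRP9, which binds the Alu domain of RN7SL RNAs, was highest at 0.48. Without scrambled replicate 1 that median was 0.06.

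Of 16 genes for telomerase and H/ACA proteins, 2 were called, both higher, where 0.411% of all genes were called higher. At an unadjusted p under 0.05, 6 passed, against 17.8% of all genes. RUVBL2, an ATPase that takes part in telomerase assembly, had means of 101 CPM for s46, 104 for s47 and 66.8 for scrambled siRNA (log2 fold change 0.62 ± 0.12 SE, edgeR adjusted p = 0.0425). SHQ1, an assembly factor of H/ACA particles, had means of 444 CPM for s46, 455 for s47 and 296 for scrambled siRNA (0.61 ± 0.12, adjusted p = 0.0441). Both calls were lost when any of the 6 TLX1 siRNA libraries or scrambled replicate 3 was left out (edgeR adjusted p 0.0596 to 0.159). They were also lost under library totals, upper quartile scaling and all reads as library size (0.0545 to 0.122). Without the 3 libraries of number 1 both were lost too, while both held when only scrambled replicate 1 was left out. The list's median was 0.25, and 0.16 without scrambled replicate 1. TERT, the catalytic partner of TERC, named after its values were seen, had means of 1.95 CPM for s46, 1.94 for s47 and 1.07 for scrambled siRNA (0.87 ± 0.28, adjusted p = 0.188).

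Of 32 subunits of RNA polymerase III and its initiation factors, edgeR called 0 and DESeq2 4, all higher, where DESeq2 called 1.57% of all genes higher. By edgeR 6 had an unadjusted p under 0.05, against 17.8% of all genes. POLR3G, a subunit found mainly in proliferating and stem cells, was highest at 0.69 ± 0.16 SE (edgeR adjusted p = 0.0785), and SNAPC4, which binds the promoters of small nuclear RNA genes, was lowest at -0.34. The median was 0.09, and 0.02 without scrambled replicate 1. Of 26 genes of small RNA processing and the nuclear exosome, 0 were called and 4 had an unadjusted p under 0.05, again against 17.8%. The list's median was 0.17, and 0.07 without scrambled replicate 1. SSB, the La protein that binds the 3′ ends of polymerase III transcripts, was highest at 0.45, and LARP1 was lowest at -0.42.

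Of 15 protein-coding and other genes near NEAT1 and MALAT1 at 11q13, 0 were called by edgeR and 5 had an unadjusted p under 0.05, all lower, where 10.5% of all genes were lower at that threshold. Values lay below 0 for 12 of the 15, against 8597 of the 16072 genes, with a median of -0.28, and of -0.09 without scrambled replicate 1. LTBP3, which binds latent TGF-beta, was lowest at -0.94 ± 0.29 SE (adjusted p = 0.179), or -0.44 without scrambled replicate 1, and SSSCA1 was highest at 0.11.

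Some other short RNAs were at 0 as well. Of 46 listed small nuclear and polymerase III RNAs, 24 were tested and 9 were at 0 in all 9 libraries, 4 of them fully shared with other entries and 3 (RNU2-1, VTRNA1-2 and VTRNA1-3, named after their values were seen) not shared at all. Over all listed genes, 26835 of 58096 were at 0. None of the 24 was called by edgeR, DESeq2 or limma-voom. By edgeR 3 had an unadjusted p under 0.05, against 17.8% of all genes. The median of the 24 was -0.21, or -0.15 without scrambled replicate 1. Values ran from RNU5A-1, a spliceosomal RNA, at -0.62 to RNVU1-6, a variant U1 RNA, at 0.78. Of 21 listed scaRNAs, the class of SCARNA2, 14 were tested and 4 were at 0, 3 of them fully shared. Again 0 were called and 3 had an unadjusted p under 0.05, against 17.8% of all genes. The 14 ran from SCARNA20 at -0.83 to SCARNA18 at 1.05. Their median was 0.05, and it turned to -0.05 without scrambled replicate 1 and to -0.02 with library totals. Of 15 other nuclear long non-coding RNAs, 0 were called and 5 had an unadjusted p under 0.05, against the same 17.8%. The list's median was -0.05, or -0.10 without scrambled replicate 1, with values from FTX at -0.53 to MIR155HG at 0.39.

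**Figure D5:**
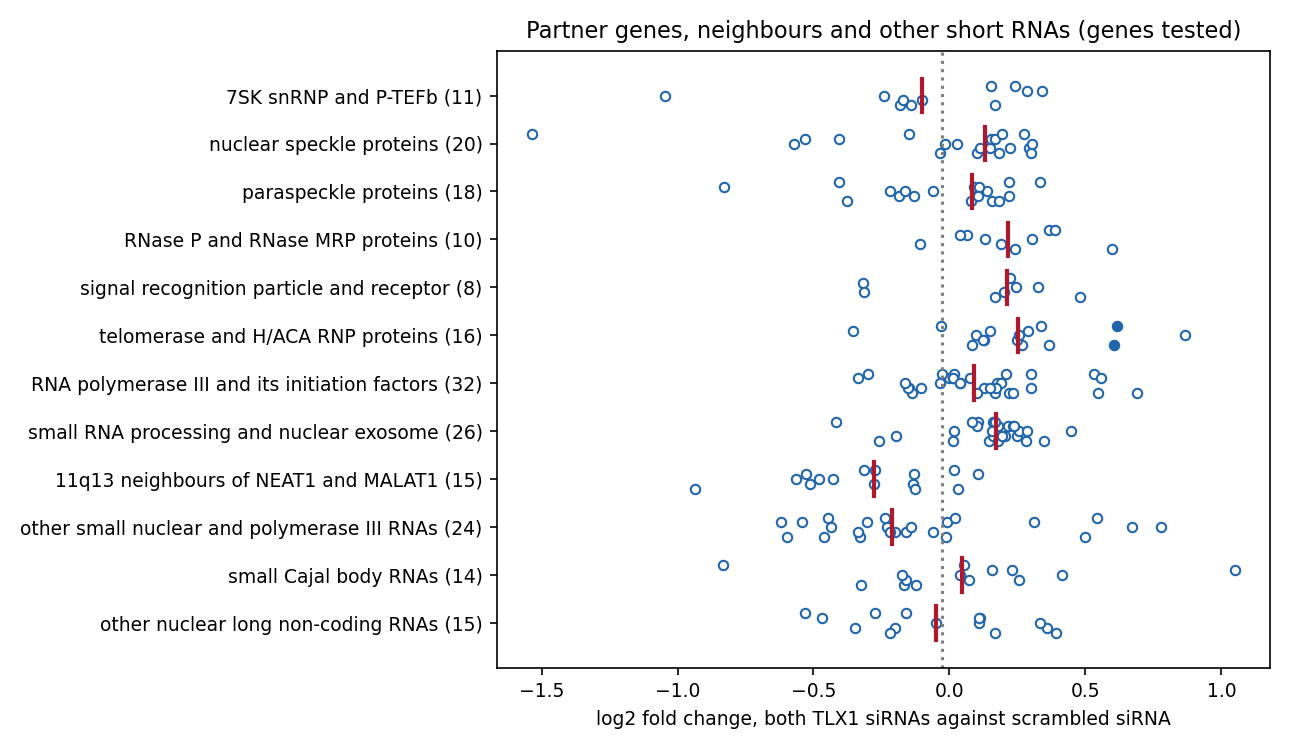
log2 fold change for both TLX1 siRNAs against scrambled siRNA of each tested gene in 12 lists (rows, number tested in brackets); filled points have an adjusted p under 0.05, red bars are list medians and the dotted line is the median of all 16072 genes (-0.03). Only RUVBL2 and SHQ1 are filled, and the list medians run from -0.28 for the 11q13 neighbours to 0.25 for telomerase and H/ACA proteins.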

How the data were processed

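Per the labels' protocols, total RNA was extracted with miRNeasy, depleted of ribosomal RNA and made into stranded libraries. Deposited by the authors were raw counts for each gene, in a file for each library, made on GRCh38 (submitters' processing notes). No aligner, counter or annotation is named: these were not given in the sources used here. The sense column was used. The 4 lines that name no gene (23.8% to 36.8% of reads matching no counted feature, 6.36% to 14.4% multimapping, 2.12% to 4.44% ambiguous) stayed out of library sizes and tests. Of 58096 IDs, 57447 matched GENCODE 29, which gave symbols, coordinates, shared exon bases and sequences. Windows of 64 bases were sought in its transcripts, since no genome sequence was used here.

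The 16072 genes kept by filterByExpr (minimum count 10) went through TMM scaling and the robust quasi-likelihood test of edgeR 4.0.16 (R 4.3.3), in 1 fit of 9 libraries, with Benjamini-Hochberg adjustment and a threshold of 0.05. Standard errors (SE) come from the F statistic. In counts simulated for both siRNAs against scrambled siRNA over 15672 genes, the fit recovered 64 of 100 genes at a 2-fold change, 24 of 100 at 1.5-fold, and made 7 false calls.

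Named are the members, TLX1, per list up to 4 called genes or else the highest and lowest, and 2 genes most like each member; some items that this rule takes are not reported here. In their deviations from group means, same-numbered libraries correlated at 0.35 to 0.44 between s46 and s47 and at 0.20 to 0.31 between s46 and scrambled, so numbers were taken to pair those; between s47 and scrambled the values were 0.20, -0.03 and 0.30. The members and lists were chosen with earlier results of these data known. The alternatives tried included limma-voom 3.58.1, DESeq2 1.42.0, other scalings, other filters, unstranded counts, fewer samples, a replicate block, windows of 32 bases and each library left out. The list values without a library were added after seeing the data.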

Additional observations from a re-analysis of the deposited data

How the results depend on the processing

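For both siRNAs, leaving out 1 library gave log2 fold changes of -0.64 to -0.21 for MALAT1, -1.09 to -0.57 for NEAT1 and -0.24 to 0.19 for RN7SL2. MALAT1 and NEAT1 stayed below 0 under every alternative run against scrambled siRNA. NEAT1 passed the threshold with DESeq2 (-0.81 for both siRNAs, -0.88 for s47), with no filter (-0.79 for both, -0.71 for s46, -0.86 for s47) and without scrambled replicate 2 (-1.09 for both, -1.01 for s46, -1.16 for s47); the highest values with 1 library left out were -0.49 for s46 and -0.65 for s47. RN7SL2 for both siRNAs was above 0 with RLE (0.0022), all reads (0.073), DESeq2 (0.0022), limma-voom (0.043), no filter (0.014), unstranded counts (0.025) and the replicate block (0.034). Leaving out 1 library gave RN7SL2 -0.42 to 0.015 for s46 and -0.064 to 0.37 for s47, and MALAT1 -0.082 to 0.19 for s46 against s47. Without the 3 libraries of number 1, RN7SL2 was -0.0078 for s47 and MALAT1 -0.12 for s46 against s47; upper quartile scaling gave MALAT1 -0.0025 in s46 against s47. RPP25L was 0.0097 with all reads.

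Genes called numbered 91 for both siRNAs, 28 for s46, 53 for s47 and 0 for s46 against s47. In the same order they numbered 458, 196, 203 and 0 with DESeq2, 876, 384, 432 and 3 with no filter, and 37, 6, 12 and 0 with all reads. Fits of only the groups compared called 6 for s46 and 8 for s47; library totals called 14 and upper quartile 18 for s46, and 33 were called for s47 without number 1. Leaving out 1 library gave 22 to 1650 for both siRNAs, 4 to 225 for s46 and 4 to 275 for s47; the 1650 came without scrambled replicate 2, and 22 without scrambled replicate 3. Of the 91, 66 were higher and 25 lower; the split was 49 and 30 with library totals, 253 and 205 with DESeq2 and 325 and 551 with no filter.

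For s47 and for both siRNAs the numbers were not taken to pair samples, since s47 and scrambled replicate 2 did not deviate together. A replicate block gave MALAT1 -0.45 and NEAT1 -0.76 (adjusted p = 0.0870) and called 222 genes for both siRNAs, 74 for s46 and 125 for s47; for both siRNAs it called 1 of the 32 RNA polymerase III genes, and no member's call changed with it. With windows of 32 bases, 98.0% of NEAT1, 11.8% of RN7SK, 0.746% of RN7SL1 and 5.95% of RN7SL2 windows were in 1 place. The cause of these shifts was not tested.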

Other observations

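Listed copies of 2 member families, looked at after the members' counts were seen, also held sense reads. Of 678 listed 7SL copies other than RN7SL1 and RN7SL2, 275 had sense reads. Their sum was 68.2, 66.2 and 60.9 CPM (not TMM-scaled) in s46 libraries and 62.5, 75.8 and 66.5 in s47 libraries, against 122, 71.2 and 88.1 in scrambled libraries. Scrambled replicate 1, the lowest library for RN7SL2, was the highest for these copies. RN7SL4P held the most reads of them, 2681 over the 9 libraries. Of 293 listed 7SK copies, 101 had sense reads, and their sum was 24.0, 23.3 and 24.9 CPM in s46 libraries and 28.7, 25.5 and 29.3 in s47 libraries, against 34.4, 27.1 and 33.8 in scrambled libraries. RN7SKP203 held the most, 1555 over the 9 libraries, while RN7SK itself was at 0. Where these reads arose, from the copies, from the RNAs they resemble or from other transcripts over the copies, was not tested.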
